A study of Solanum lycopersicum with 8 samples.

Results

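TBG3, CELLULASE and Xegip are tomato genes of plant cell wall turnover, and their transcripts were followed here in leaves that had received a spray of either water or neutralized phosphorous acid (NPA). Each gene was taken by its symbol in the platform annotation, which pairs each of the 3 with a single probe set, so 3 of the 688 genes with a symbol and 3 of the 8404 probe sets tested are members. They were chosen by measured values, with earlier results of these arrays in view: TBG3 for its change between harvests, Xegip for its difference between NPA and water leaves at 6 h, and CELLULASE for a reason not stated. Those contrasts are therefore given as descriptions with no test, as are the harvest contrasts of Xegip and all contrasts of CELLULASE other than NPA against water at 12 h.

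NPA is phosphorous acid at 1 g per litre, brought to pH 6.3 with potassium hydroxide. Plants of the cultivar Summer sweet, raised at 27 °C with a photoperiod of 12 h, were sprayed until run-off with NPA or with water as the control, and leaves were taken 12 h or 6 h later. The 4 groups were NPA at 12 h, water at 12 h, NPA at 6 h and water at 6 h, each with 2 Affymetrix Tomato Genome arrays from separate repeats of the experiment, and each array carried RNA pooled from 5 plants. Values are the deposited log2 expression values, so a difference of 1 is a doubling, and a probe set's level is not set against that of another. The hour of the day at harvest and the hours since the spray cannot be told apart.

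The plant cell wall is a network of cellulose and xyloglucan in a gel of pectin, and it is loosened and rebuilt by secreted enzymes. Beta-galactosidases such as TBG3 remove galactose from pectic galactan and other wall polymers, and in tomato the TBG family is best known from softening fruit. Cellulases, or endo-1,4-beta-glucanases, cut beta-1,4-linked glucan chains and are known from fruit, abscission zones and growing tissue. Xegip is a secreted protein that binds and blocks xyloglucan-specific endoglucanases of fungi, and is counted among the plant's defences of its own wall.

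The labelled tissue could be checked only in part, since no detection calls were used. Of 21 leaf photosynthesis markers 5 were measured. PSBO, of the oxygen-evolving complex, read between 13.86 and 13.93 on all 8 arrays, and LOC543978, a photosystem I subunit found through its synonym psaD, between 13.91 and 14.05. CAB4, a chlorophyll a/b-binding protein, read between 11.03 and 11.86 at 12 h, against 13.85 to 13.91 at 6 h. CAB5 read between 8.05 and 9.55 at 12 h, against 13.67 to 13.82 at 6 h, and CAB6A between 11.98 and 12.40 at 12 h, against 14.07 to 14.17 at 6 h. All 3 chlorophyll a/b-binding genes were thus lower at 12 h, while PSBO and LOC543978 lay on all arrays near the highest values of the table. The part of these shifts in the harvest changes below was not tested. In whole leaves, fewer cells of a type and less RNA per cell cannot be told apart. Markers of ripening fruit, pollen and root had no match among the symbols.

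TBG3 was the gene with a symbol that was raised most at 12 h over 6 h. It read 12.22 and 13.05 in the NPA leaves of 12 h, 12.22 and 13.38 in the water leaves of 12 h, 7.72 and 8.63 in the NPA leaves of 6 h, and 7.96 and 8.97 in the water leaves of 6 h. The 4 arrays of 12 h all lay far above the 4 arrays of 6 h, whatever the spray. How many of all probe sets had all arrays so separated was not counted. The group means were 12.64 ± 0.59 and 12.80 ± 0.82 for NPA and water at 12 h, and 8.18 ± 0.64 and 8.47 ± 0.71 for NPA and water at 6 h (SD, n = 2 each). In order of level, water 12 h came first, then NPA 12 h, water 6 h and NPA 6 h, and only the step between the harvests was wider than the spread between repeats.

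In NPA leaves TBG3 was higher at 12 h than at 6 h by 4.46 (standard error, SE, 0.55), a 22.01-fold difference. The repeats gave 4.50 and 4.42. In water leaves it was higher by 4.335 (SE 0.55), a 20.2-fold difference, with 4.26 and 4.41 in the repeats. The change in NPA leaves and that in water leaves differed by 0.125 (95% interval -1.75 to 2.003, and -0.27 to 0.52 with the repeat as a block). Among all 8404 probe sets TBG3 had the 3rd highest rise in NPA leaves and the 5th highest in water leaves. It had the highest of the 688 genes with a symbol in both. For comparison, the groups did not overlap and 12 h was the higher in 33.4% of all probe sets in NPA leaves and in 35.2% in water leaves. These values chose the gene and are not tested.

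**Figure D1:**
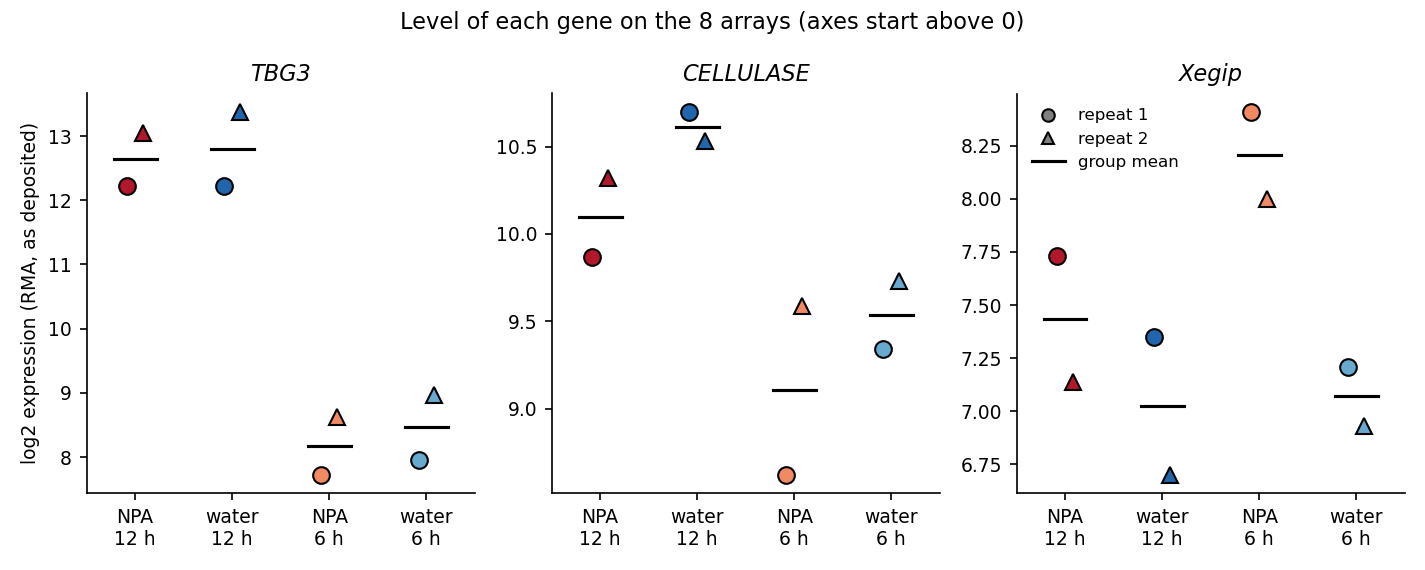
The deposited log2 expression of TBG3, CELLULASE and Xegip (vertical axes, which do not start at 0 and differ between panels) is shown for each of the 8 arrays, grouped on the horizontal axis by spray and harvest. Circles are repeat 1, triangles repeat 2 and bars the group means. TBG3 sits between 12.22 and 13.38 at 12 h and between 7.72 and 8.97 at 6 h, CELLULASE is higher at 12 h by less, and Xegip is highest in the NPA leaves of 6 h, at 8.41 and 8.

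Whether NPA changed TBG3 is independent of the choice and was tested with limma over all probe sets, with Benjamini-Hochberg adjusted p under 0.05 as the threshold. At 12 h NPA and water leaves differed by -0.165 (SE 0.55, adjusted p = 0.943), with 0 in repeat 1 and -0.33 in repeat 2. At 6 h they differed by -0.29 (SE 0.55, adjusted p = 0.863), with -0.24 and -0.34 in the repeats. Averaged over harvests the difference was -0.23 (SE 0.39, 95% interval -1.17 to 0.71, adjusted p = 0.85). None of these passed. With the repeat as a block the average had a 95% interval of -0.42 to -0.03 and did not pass either (adjusted p = 0.206). For scale, 0.0119%, 0.167% and 0.0714% of all probe sets passed at 12 h, at 6 h and on average, and 0%, 1.29% and 0.952% with the repeat number as a block.

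Much of that spread lay between the repeats. TBG3 was higher in repeat 2 than in repeat 1 in all 4 groups, by 0.83, 1.16, 0.91 and 1.01 in NPA 12 h, water 12 h, NPA 6 h and water 6 h, a mean of 0.98 or 1.97-fold. In all, 17.8% of probe sets were higher in repeat 2 in all 4 groups, and TBG3 had the 50th highest mean. With the repeat as a block the SE of its NPA effect at each harvest was 0.11 in place of 0.55, and the interval was -0.44 to 0.11 at 12 h and -0.57 to -0.01 at 6 h. The adjusted p was 0.465 and 0.19, so neither passed. Of the sum of squares of TBG3 over the 8 arrays, 95% went with harvest, 4.69% with repeat and 0.254% with spray.

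All 7 TBG genes of the annotation were measured, and the harvest changes of the others were smaller. TBG7 was lower at 12 h, at -1.185 in NPA leaves (SE 0.17, adjusted p = 0.00568) and -1.14 in water leaves (adjusted p = 0.00705). It read 8.85, 9.01, 9.20 and 9.06 on the 2 NPA and 2 water arrays of 12 h, against 9.91, 10.32, 10.22 and 10.32 on those of 6 h. TBG6 also fell, with -0.88 in NPA leaves (SE 0.23, adjusted p = 0.0346) and -1.025 in water leaves (adjusted p = 0.0244).

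TBG4, the beta-galactosidase of ripening fruit walls, rose in NPA leaves, by 1.385 (SE 0.31, adjusted p = 0.022), while in water leaves it stood at 0.015 (adjusted p = 0.981). TBG5 stood at 0.17 in NPA leaves (adjusted p = 0.471) and fell by 0.865 in water leaves (adjusted p = 0.0142). For neither gene did the difference between sprays in this change pass (adjusted p = 0.28 for TBG4 and 0.191 for TBG5). TBG2 stood at 0.74 in NPA and 0.295 in water leaves, and TBG1 at 0.31 and 0.135, and these did not pass. With the repeat as a block TBG2 passed in NPA leaves (adjusted p = 0.0261). The family thus held rises and falls side by side.

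**Figure D2:**
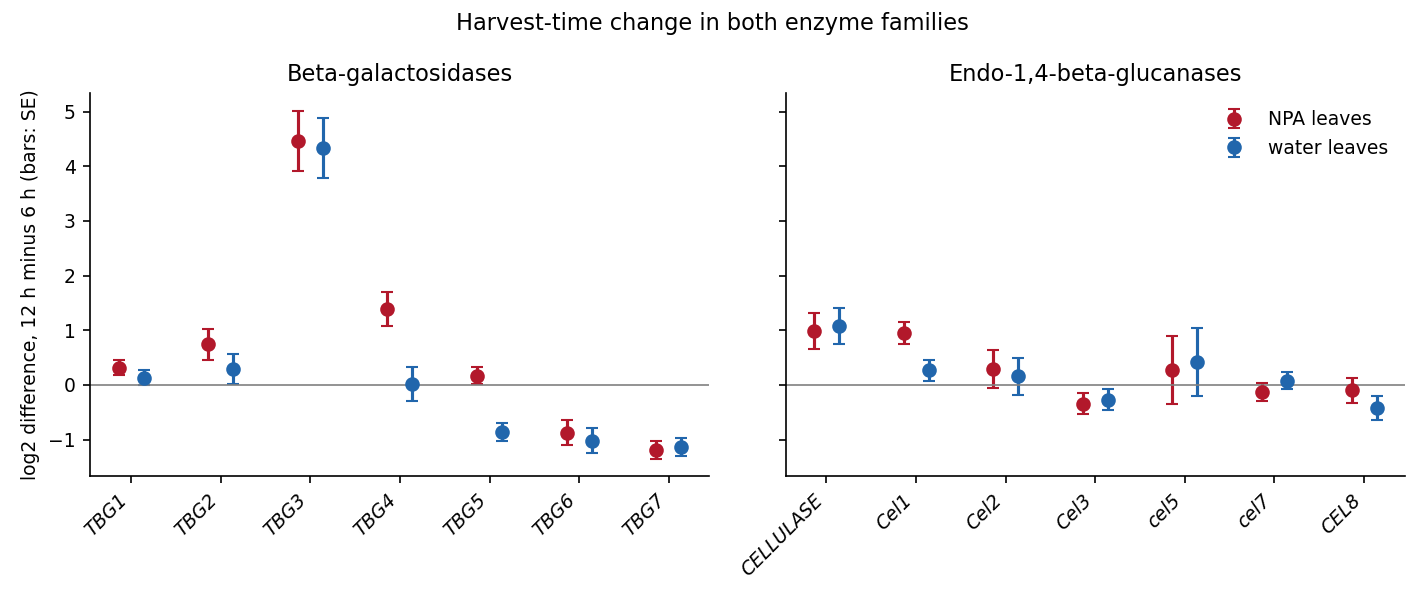
Log2 differences of 12 h minus 6 h (vertical axis, bars are SE) are plotted for the 7 beta-galactosidases and the 7 endo-1,4-beta-glucanases (horizontal axis), in NPA leaves (red) and water leaves (blue), from 2 arrays per group. TBG3 lies at 4.46 and 4.335, TBG6 and TBG7 lie below 0 in both, and CELLULASE lies near 1 in both.

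CELLULASE was also higher at 12 h, by less. It read 9.87 and 10.32 in the NPA leaves of 12 h, 10.70 and 10.53 in the water leaves of 12 h, 8.62 and 9.59 in the NPA leaves of 6 h, and 9.34 and 9.73 in the water leaves of 6 h. At each harvest the NPA array of a repeat lay below its water array, a pattern whose share over all probe sets was not counted. The 12 h arrays all lay above the 6 h arrays, the nearest being 9.87 of NPA 12 h and 9.73 of water 6 h. The share of probe sets with all 12 h arrays above all 6 h arrays was not counted. Within a spray, an easier criterion, 12 h lay above 6 h without overlap in 33.4% of all probe sets in NPA leaves. In water leaves it did so in 35.2%. The order of the means was water 12 h at 10.62 ± 0.12, NPA 12 h at 10.10 ± 0.32, water 6 h at 9.54 ± 0.28 and NPA 6 h at 9.11 ± 0.69 (SD, n = 2 each). Water 6 h and NPA 6 h overlapped.

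At 12 h CELLULASE was higher than at 6 h by 0.99 in NPA leaves (SE 0.33, 1.99-fold), with 1.25 and 0.73 in the repeats. In water leaves it was higher by 1.08 (SE 0.33, 2.11-fold), with 1.36 and 0.80. The value in NPA leaves rested partly on the first NPA array of 6 h, the lowest of the 8, and was 0.505 without it and 1.475 without the second.

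NPA and water leaves differed in CELLULASE by -0.52 at 12 h (SE 0.33, 95% interval -1.32 to 0.28), which did not pass in limma (adjusted p = 0.647, and 0.329 with the repeat as a block). As the reason for choosing CELLULASE is not stated, this test at 12 h may not be independent of the choice. The groups did not overlap, being 0.21 apart at the nearest, as in 21% of all probe sets with NPA the lower. At 6 h the difference was -0.43 (SE 0.33), with -0.72 and -0.14 in the repeats, and it was 0.055 without the first NPA array of 6 h. The average of the NPA effects was -0.475 (SE 0.24, and 0.18 with the block). It was the 54th lowest of all probe sets and the 8th lowest of the named genes, given as a description. The NPA effects of both harvests lay within 0.09 of each other (95% interval of the difference -1.22 to 1.04, and -0.98 to 0.80 with the block). Of the sum of squares 65.7% went with harvest, 13.8% with spray and 10.3% with repeat.

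Of the other 6 endo-1,4-beta-glucanases, 1 passed between harvests. Cel1, known from abscission zones, rose at 12 h over 6 h in NPA leaves, by 0.945 (SE 0.20, 1.93-fold, adjusted p = 0.0173), and stood at 0.265 in water leaves (adjusted p = 0.368). It read 10.18 and 10.35 in NPA leaves at 12 h, against 9.46 and 9.18 at 6 h. Cel2 stood at 0.29 in NPA and 0.16 in water leaves, cel5 at 0.275 and 0.42, cel7 at -0.125 and 0.08, Cel3 at -0.345 and -0.27, and CEL8 at -0.10 and -0.42, and none of these passed. With the block CEL8 passed in water leaves (adjusted p = 0.0205).

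Xegip differed with the spray and most at 6 h. It read 7.73 and 7.14 in the NPA leaves of 12 h, 7.35 and 6.70 in the water leaves of 12 h, 8.41 and 8 in the NPA leaves of 6 h, and 7.21 and 6.93 in the water leaves of 6 h. The NPA arrays of 6 h had the highest values of the 8. These values chose the gene, and the share of probe sets with this pattern was not counted. At 12 h NPA and water overlapped, with NPA above water by 0.38 and 0.44 in the repeats. The order of the means was NPA 6 h at 8.21 ± 0.29, NPA 12 h at 7.44 ± 0.42, water 6 h at 7.07 ± 0.20 and water 12 h at 7.03 ± 0.46 (SD, n = 2 each). The last 3 overlapped within their SD, which takes in the shift between repeats that all groups shared.

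At 6 h Xegip was higher under NPA by 1.135 (SE 0.30, 2.20-fold), with 1.20 and 1.07 in the repeats. NPA was above water without overlap in 21.9% of all probe sets at 6 h. Xegip was 202nd from the top of the 8404 probe sets and 51st of the named genes. These values chose the gene. MTS1, the 1 measured of 2 glandular trichome markers, was also higher under NPA at 6 h, without passing in limma (adjusted p = 0.137). It read 4.88 and 6.03 in NPA leaves, against 3.92 and 3.97 in water leaves at 6 h. At 12 h it read 3.36 and 3.81 against 3.30 and 3.46. Between repeats MTS1 went the other way, higher in repeat 2 in all 4 groups where Xegip was lower. Its readings lay in the low part of the range of all values, which starts at 2.68. The part of trichomes in the Xegip result was not tested.

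At 12 h the NPA effect on Xegip was 0.41 (SE 0.30, 1.33-fold, 95% interval -0.30 to 1.12), with 0.38 and 0.44 in the repeats. It did not pass in limma (adjusted p = 0.681, and 0.205 with the repeat as a block). With the block the interval was 0.11 to 0.71. The effect at 12 h was smaller than that at 6 h by 0.725 (SE 0.42, 95% interval -1.73 to 0.28). With the block that interval was -1.15 to -0.30. Both are given as descriptions because the difference contains the 6 h effect.

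Xegip was lower at 12 h than at 6 h in NPA leaves, at -0.77 (SE 0.30, 1.71-fold). The repeats gave -0.68 and -0.86, and the groups did not overlap, as in 29.3% of all probe sets with 12 h the lower. In water leaves the change was -0.045 (SE 0.30), with 0.14 and -0.23 in the repeats. Both harvest changes use 6 h arrays of the difference for which the gene was chosen, so they too are descriptions with no test. Xegip was lower in repeat 2 in all 4 groups, by 0.28 to 0.65, opposite to TBG3, as were 21.9% of all probe sets. Of its sum of squares 52.0% went with spray, 20.3% with repeat, 14.5% with harvest and 11.4% with harvest by spray.

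The 3 genes were set beside 37 other genes with cell wall names in 7 classes: 6 beta-galactosidases, 6 endo-1,4-beta-glucanases, 10 xyloglucan endotransglucosylases (XTH), 11 expansins, 2 wall invertases, a pectin methylesterase and an arabinogalactan protein. None of the 37 passed for NPA in limma, at 12 h, at 6 h or on average, with or without the block. At an unadjusted p under 0.05 there were 3, 2 and 1, against 811, 1319 and 989 of the 8404 probe sets. With the block there were 4, 3 and 3, against 1537, 2069 and 1680. Their median NPA effect was -0.06 at 12 h and -0.115 at 6 h, against -0.03 and -0.01 over all probe sets. At 12 h 18 of the 37 lay above water and 19 below, and at 6 h 11 above and 26 below.

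The largest NPA effect of the list at both harvests was that of Wiv-1, an extracellular invertase that splits sucrose at the wall. Wiv-1 read 8.97 and 7.65 in NPA leaves at 12 h, against 6.15 and 6.14 in water leaves, and 8.05 and 7.38 in NPA leaves at 6 h, against 6.03 and 6.92 in water leaves. All 4 NPA arrays lay above all 4 water arrays, as in 1.99% of all probe sets, and NPA lay above water without overlap in 17.1% at 12 h and 21.9% at 6 h. The difference was 2.165 at 12 h (SE 0.49, 4.48-fold, adjusted p = 0.46) and 1.24 at 6 h (SE 0.49, 2.36-fold, adjusted p = 0.291), and averaged 1.70 (SE 0.35, adjusted p = 0.197). None of these passed, also with the block. TBG5 stood at 0.44 at 12 h and -0.595 at 6 h, and TBG4 at 0.76 and -0.61, and these did not pass either (adjusted p = 0.494 and 0.164 for TBG5, 0.517 and 0.42 for TBG4). On average over harvests EXPA4 stood at -0.26 and EXPA3 at -0.22, both expansins, which loosen walls without cutting them.

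**Figure D3:**
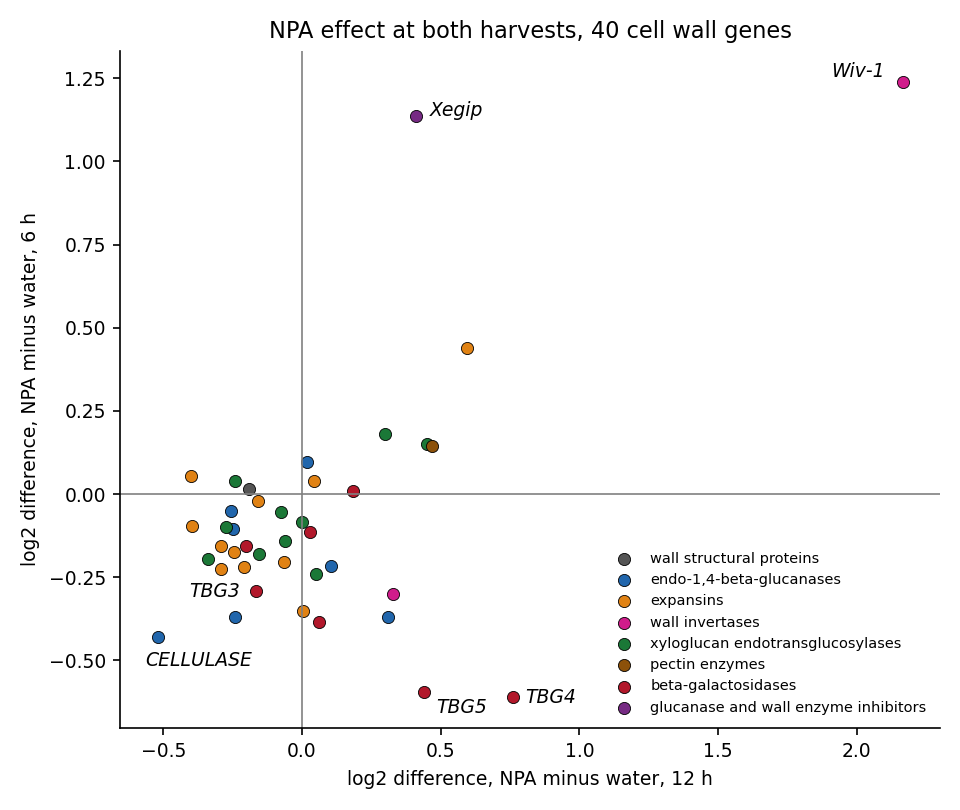
Each point is a cell wall gene, 40 in all, with its log2 difference of NPA minus water at 12 h on the horizontal axis and at 6 h on the vertical axis, coloured by class. Xegip (0.41 and 1.135) and Wiv-1 (2.165 and 1.24) lie apart in the upper right, CELLULASE (-0.52 and -0.43) lies farthest to the left, and TBG3 (-0.165 and -0.29) lies among the bulk of the list.

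Between harvests the 37 held both rises and falls. In NPA leaves 3 rose and 5 fell, where 26% of all probe sets passed (14.2% higher and 11.8% lower), and in water leaves 2 rose and 7 fell, where 22.2% passed (11.7% higher and 10.5% lower). With both directions together the list's share was thus near that of all probe sets. In water leaves its calls were mostly falls, unlike those of all probe sets, which rests on few genes and was not tested. The median change was -0.125 in NPA leaves and -0.20 in water leaves, against 0.02 in both over all probe sets. With the block 14 passed in NPA leaves (7 rises and 7 falls, with 40.5% of all probe sets, 21.7% higher and 18.7% lower). In water leaves 2 rose and 8 fell, together a smaller share than over all probe sets (37.4%, with 20.2% higher and 17.2% lower).

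The rises were TBG4 and Cel1 in NPA leaves, exp9 in water leaves, and EXP12 in both. The expansin EXP12 rose by 1.29 in NPA leaves (SE 0.36, adjusted p = 0.0408) and by 1.285 in water leaves (adjusted p = 0.0455). The expansin exp9 rose in water leaves, by 1.285 (SE 0.30, adjusted p = 0.0273). In NPA leaves exp9 had 10.59 and 10.94 at 12 h, against 9.31 and 10.25 at 6 h, and did not pass (adjusted p = 0.0539, and 0.0181 with the block).

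Among the falls, XTH1, which cuts and rejoins xyloglucan chains, fell in both, with -1.505 in NPA leaves (SE 0.22, adjusted p = 0.00619) and -1.585 in water leaves (adjusted p = 0.00594). AGP-1, an arabinogalactan protein of the cell surface, likewise had -1.61 in NPA leaves (SE 0.35, adjusted p = 0.0203) and -1.405 in water leaves (adjusted p = 0.0342). EXPA4 also fell in both, with -0.86 in NPA leaves (SE 0.17, adjusted p = 0.0139) and -0.795 in water leaves (adjusted p = 0.0208). LIN8, a wall invertase, fell in water leaves, at -0.975 (SE 0.20, adjusted p = 0.0209). In all 6 genes passed under both sprays in the same direction, 1 as higher and 5 as lower, which is 75% of those called in NPA leaves and 66.7% of those called in water leaves. Over all probe sets these shares were 53% and 62%.

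Many of these calls were lost with 1 array fewer, also where the array left out was not in the contrast and the difference stayed as it was. How many of all probe sets lost their call in the same fits was not counted. The losses may therefore not be particular to the cell wall genes. The count of 8 in NPA leaves was 3 when the first NPA array of 6 h was left out and 4 when the second was. There XTH1 and TBG7 passed whichever array was left out. TBG4 was lost without either NPA array of 6 h or the second of 12 h, Cel1 without the second NPA array of either harvest, AGP-1 without either NPA 6 h array, and EXPA4 without the first NPA 6 h or the second NPA 12 h array. EXP12 was lost without any array but the water 12 h ones, and TBG6 without any but the second NPA 12 h array (adjusted p up to 0.171 over these genes). The difference of EXP12 lay between 1.09 and 1.49 over these fits, and that of TBG6 between -1.205 and -0.555.

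The count of 9 in water leaves was 0 when the first water array of 6 h was left out and 3 when the second was. It was 5 when the first water array of 12 h was left out and 2 when the second was. XTH1 and TBG7 were lost only in the absence of the first of the water arrays of 6 h (adjusted p = 0.0506 each). TBG6 and exp9 were lost without any water array, LIN8 without either water 6 h or the second water 12 h array, AGP-1 without any array but the NPA 12 h ones, and EXP12 without any but the first water 12 h array (adjusted p up to 0.205). The difference of exp9 lay between 1.21 and 1.36, that of TBG6 between -1.135 and -0.915, and that of EXP12 between 0.73 and 1.84. All 7 genes named in this paragraph kept their direction. Here too the losses over all probe sets were not counted.

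The genes most like each member were looked for among the other 685 genes with a symbol, by Pearson's r over the 8 arrays, which fall into the 4 groups of the design and share the repeats. These r are descriptions. For TBG3 the nearest was GBF12, a G-box binding factor of the bZIP class, at r = 0.993. GBF12 read 10.26 and 10.73 in NPA leaves of 12 h and 10.48 and 10.62 in water leaves of 12 h, against 8.10 and 8.40 in NPA leaves and 8.16 and 8.85 in water leaves of 6 h. It thus shared both the step between harvests and, in a smaller measure, the higher values of repeat 2. Next came LOC543604 (0.989), krp1, an inhibitor of cyclin-dependent kinases (0.978), and LOC543919 (0.976), whose harvest changes were smaller than that of TBG3. The most opposite was FPPS1, farnesyl pyrophosphate synthase of isoprenoid synthesis (-0.989). In all, 18 of the 685 genes had r over 0.95 with TBG3.

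For CELLULASE the nearest were LOC544234 (0.986), LOC543932 (0.971), the expansin exp9 (0.968) and LOC543857 (0.957), and 4 genes had r over 0.95. The expansin exp9 had the same low first NPA array of 6 h, at 9.31, and like CELLULASE it was highest in the water leaves of 12 h, at 11.13 and 11.19. The most opposite gene was CNX61.0 (-0.968).

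For Xegip the nearest were ODD (0.983), LOC543949 (0.979), NDK, a nucleoside diphosphate kinase (0.965), and ER24 (0.958), and 4 genes had r over 0.95. ODD read 9.51 and 7.85 in NPA leaves of 12 h, against 8.35 and 7.37 in water leaves, and 10.69 and 9.61 in NPA leaves of 6 h, against 7.96 and 7.21 in water leaves. Like Xegip it was highest in the NPA leaves of 6 h and higher in repeat 1 than in repeat 2 of each group. PLDa3, a phospholipase D, was the most opposite (-0.888).

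**Figure D4:**
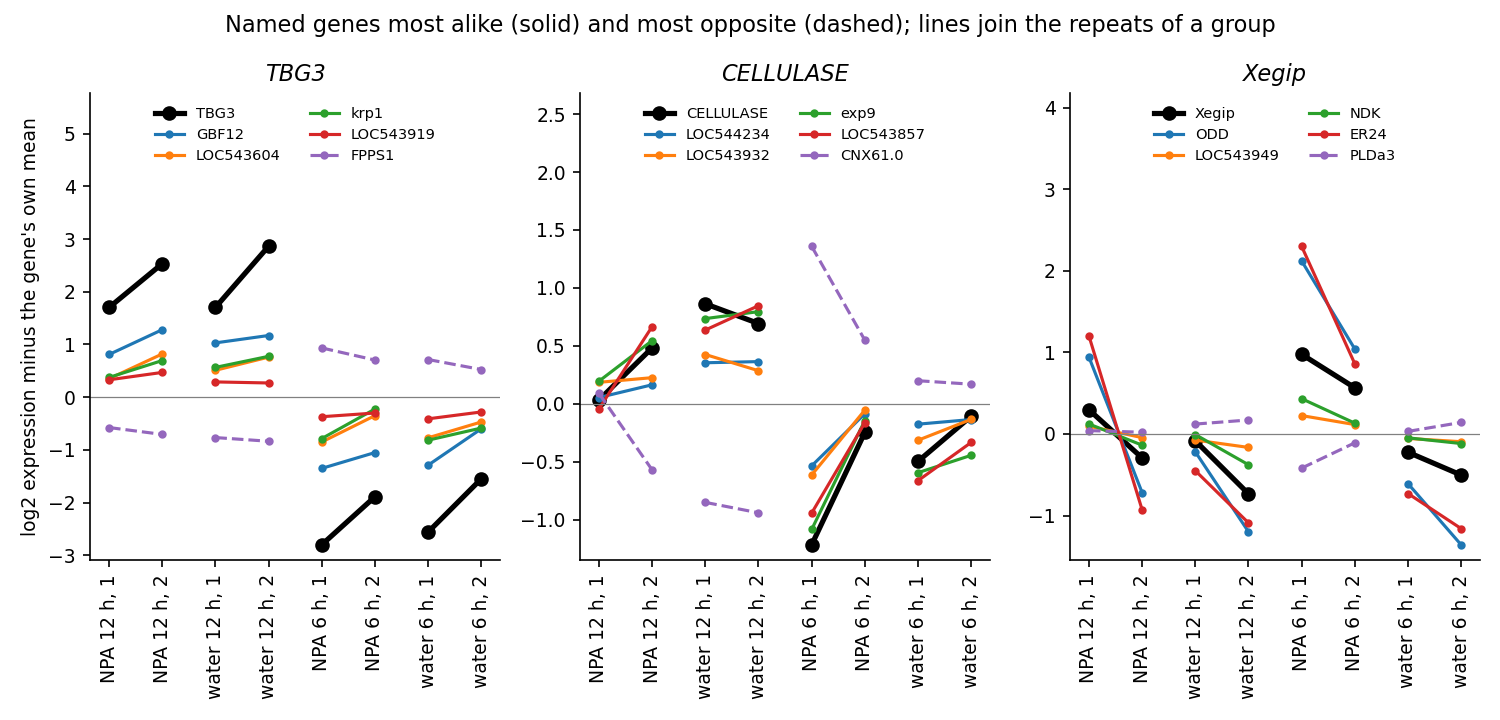
Log2 expression minus each gene's own mean (vertical axis) is plotted on the 8 arrays (horizontal axis, named by spray, harvest and repeat) for each member in black, the 4 named genes most alike (solid) and the 1 most opposite (dashed), with lines joining the repeats of a group. The genes like TBG3 step between the harvests, the genes like Xegip peak in the NPA leaves of 6 h, and TBG3 spans 5.66 over the arrays, against 2.08 for CELLULASE and 1.71 for Xegip.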

How the data were processed

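The authors made the deposited values with RMA, per the submitters' processing notes, and no version is given in the sources used. The values as deposited by the authors were taken to be log2 expression, because they range from 2.68 to 14.6 and RMA gives that scale. After leaving out 84 control probe sets, 8404 of 8488 were tested, of which 753 had 1 gene symbol and 7651 none. The number of arrays limits the precision.

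The 4 group means were estimated in limma 3.58.1 (lmFit, then eBayes) under R 4.3.3 from all 8 arrays at once, leaving 4 residual degrees of freedom, and p-values were adjusted by Benjamini-Hochberg over all 8404 probe sets, with 0.05 as the threshold. Without the block, p-values measure the spread between the pools of a group, which takes in the shift between repeats. Same-numbered arrays deviated together (correlations 0.316 to 0.596 over 6 pairs of groups), and the design text says that the whole experiment was repeated. Blocked values stand beside tested results whose call they alter and beside the members' tests.

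The harvest contrasts of Xegip had been planned as tests and are given without p, since they use arrays of the contrast that chose it. The members and lists were chosen with earlier results of these data known. Cell wall genes were found by patterns in symbols and synonyms, 1 probe set per gene with the highest mean. The patterns also took 3 starch synthesis genes, which were removed, and 2 of 10 classes had no match. Named from the list were the TBG and cellulase families whole, up to 5 rises and 5 falls per harvest contrast by size, and the 3 smallest p where fewer than 3 passed, and by likeness the 4 symbols with the highest and the 1 with the lowest r per member. The fit was tested on simulated data, in 5 runs with 200 of 8404 probe sets changed in the 6 h comparison of NPA with water. On the log2 scale limma recovered 8% of changes of 0.5, 50.4% of changes of 1 and 87.6% of changes of 2, with 9.2 false calls per run. The simulated arrays had independent noise and no harvest or repeat effect, unlike the real ones. They also held 200 changed probe sets, where 14 passed at 6 h in the real data. These shares may therefore not hold here. In the simulation changes of 0.5, near the size of the CELLULASE difference at 12 h, were mostly missed. Alternatives were repeated quantile normalization, median centring, dropping dim probe sets, a variance trend with intensity, robust eBayes, array weights, only the arrays compared, the block, other probe sets, a fold minimum and leaving out each array. Matplotlib 3.10.9 (Python 3.11.15) drew the figures.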

Additional observations from a re-analysis of the deposited data

Results flagged for a closer look

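A total of 6 genes of the cell wall list had NPA effects of opposite sign at 12 h and 6 h in every repeat. The difference of the effects was tested in limma and passed for none of them, nor for any probe set (before adjustment 1123 had p under 0.05; blocked by repeat there were 1864, and again none passed after adjustment). Over all probe sets 23.9% showed this pattern of signs. TBG4 was above water at 12 h, by 0.51 and 1.01 in the repeats, and below it at 6 h, at -0.32 and -0.90 (difference 1.37, adjusted p = 0.28). TBG5 stood at 0.19 and 0.69 at 12 h and at -0.54 and -0.65 at 6 h (difference 1.035, adjusted p = 0.191). The differences were 0.68 for Cel1, 0.63 for LIN8, 0.32 for CEL8 and -0.455 for exp18, the 1 gene of these 6 that was above water at 6 h.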

How the results depend on the processing

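With the repeat as a block, the SE of Xegip at 12 h against 6 h in NPA leaves, -0.77, was 0.12 in place of 0.30. That contrast stays a description with no test, because its 6 h arrays chose the gene. The block also raised the count of other cell wall genes called between harvests in NPA leaves to 14, against 8 without it. It changed no call among the members' tested NPA contrasts. Of the other contrasts given as descriptions, the block brought the SE of CELLULASE between harvests to 0.25 in place of 0.33. For Xegip the SE for NPA at 6 h was 0.12 in place of 0.30. None of these is a test or independent support. For the counts that follow, the share over all probe sets in the same setting was not taken. The count of other cell wall genes in NPA leaves was 5 with only the arrays of the groups compared and 5 with a fold minimum of 2. It ranged from 3 to 7 with 1 array left out. In water leaves it ranged from 0 to 9. With 1 array left out, CELLULASE ranged from -0.915 to 0.055 for NPA at 6 h, from 0.505 to 1.475 for 12 h against 6 h in NPA leaves, and from -0.575 to 0.395 for the change of the NPA effect. Leaving out 1 array moved the NPA effect of TBG3 to between -0.745 and 0.415 at 12 h and -0.795 and 0.215 at 6 h. On average it lay between -0.5175 and 0.0625. These fits had no block, so a group left with 1 array took in the difference between repeats. Within repeats the effect on TBG3 was 0 and -0.33 at 12 h, and -0.24 and -0.34 at 6 h. Leaving out 1 array moved the NPA effect of CELLULASE at 12 h to between -0.745 and -0.295, and that of Xegip at 12 h to between 0.085 and 0.735. The harvest difference of Xegip lay between -1.065 and -0.475 in NPA leaves and between -0.37 and 0.28 in water leaves. None of the members' NPA tests passed in any of these fits. With 1 array left out the harvest change of TBG3 lay between 4.005 and 4.915 in NPA leaves and between 3.755 and 4.915 in water leaves. Xegip lay below the filter on dim probe sets and had no value there, and the members have 1 probe set each, so no other could be tried.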
